A study of Mus musculus with 6 samples.

Results

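The late enzymes of sterol synthesis carry farnesyl diphosphate through squalene and lanosterol to cholesterol, and 9 of their genes were followed here in mouse melanoma cells given simvastatin. Fdft1, Sqle, Lss, Cyp51, Tm7sf2, Lbr, Nsdhl, Hsd17b7 and Sc5d were taken by name, and every transcript listed under one of these names was kept. That gave 17 transcripts, out of 15905 transcripts under 8482 gene names in the whole table. The cells were B16.F10, a pigmented mouse melanoma line of labelled genotype WT. One group of 3 cultures had no treatment, and the other group of 3 cultures was kept for 24 h with 3.5 µM simvastatin, a concentration that the submitters describe as the IC50 of the drug in this line. All 6 cultures carry the same batch label, and RNA from each was made into strand-specific libraries of total RNA. The line is a single established culture, so no genetic background other than its own was sampled.

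Simvastatin blocks the synthesis of mevalonate, the precursor of farnesyl diphosphate and hence of squalene. Squalene is oxidised and folded into lanosterol, the earliest sterol, and a chain of enzymes of the endoplasmic reticulum membrane then strips methyl groups from lanosterol and moves or reduces its double bonds until cholesterol is left. When sterols in that membrane run low, the transcription factor SREBP-2 is released from it and switches on genes of this pathway.

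For each transcript the authors deposited 1 value per group, a fold with its raw and adjusted p from their own test, and whether they called it. No source used here names the unit of these values, so they are compared between groups, mainly within a transcript or gene. Sums over several genes and orders of genes by total are given as description, and depend on that unit. The spread between cultures enters only through the authors' p-values, and only as far as the description of the 3 cultures as biological replicates holds. Depth per sample, and so the precision of each value, is unknown. In bulk RNA, fewer cells that express a gene and less RNA per cell cannot be told apart. All 8 melanocytic markers looked for (Tyr, Tyrp1, Dct, Pmel, Mlana, Mitf, Sox10 and Gpnmb) were in the table, and all but Tyr, at 53.09 in control and 50.22 in simvastatin cells, had a higher value with simvastatin. Sox10 was at 44.15 and 45.03, and Gpnmb at 1153.3 and 2100.3. Their sum was 8012.06 and 11465.03, most of it from Dct, Tyrp1, Pmel and Gpnmb. Of 11 markers of leukocytes, endothelium, epithelium and fibroblasts, 1 had a row, the macrophage gene Cd68, at 0.37 in control and 0.93 in simvastatin cells. The part of either marker list in the results was not tested.

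Of the 17 member transcripts, 15 had a higher value in simvastatin than in control cells, against 51% of all transcripts in the table. By the authors' deposited table, 2 of them passed an adjusted p of 0.05, both higher in simvastatin cells: Hsd17b7-201 and Sc5d-201. Over the whole table, 1.11% of transcripts passed in that direction and 0.987% in the other, in which no member passed and 1 was lower at an unadjusted p under 0.05. The authors' own call, which reached adjusted p-values of up to 0.2 with folds of at least 1.5, took in 8 member transcripts, all higher: Sqle-201, Sqle-202, Lss-207, Cyp51-201, Tm7sf2-201, Nsdhl-201, Hsd17b7-201 and Sc5d-201. That call held for 5.13% of all transcripts in the higher direction and 4.37% in the lower. The called transcripts were listed under 7 of the 9 genes, and Fdft1 and Lbr had none. The share of all genes with a called transcript was not counted, and a gene with more transcripts has more chances of a call. For Lss the call fell on Lss-207, a form annotated with a retained intron, and not on its coding transcript Lss-201. Summed over its transcripts, each gene but Lbr was higher in simvastatin cells, 8 of 9 against 51.6% of all genes. The total was more than 2-fold higher for 7 of the 9 genes, against 5.2% of all genes. The median log2 ratio of the gene totals was 1.11 over the members and 0.02 over the 8474 genes with a finite ratio. These totals are sums of group values and carry no test.

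**Figure D1:**
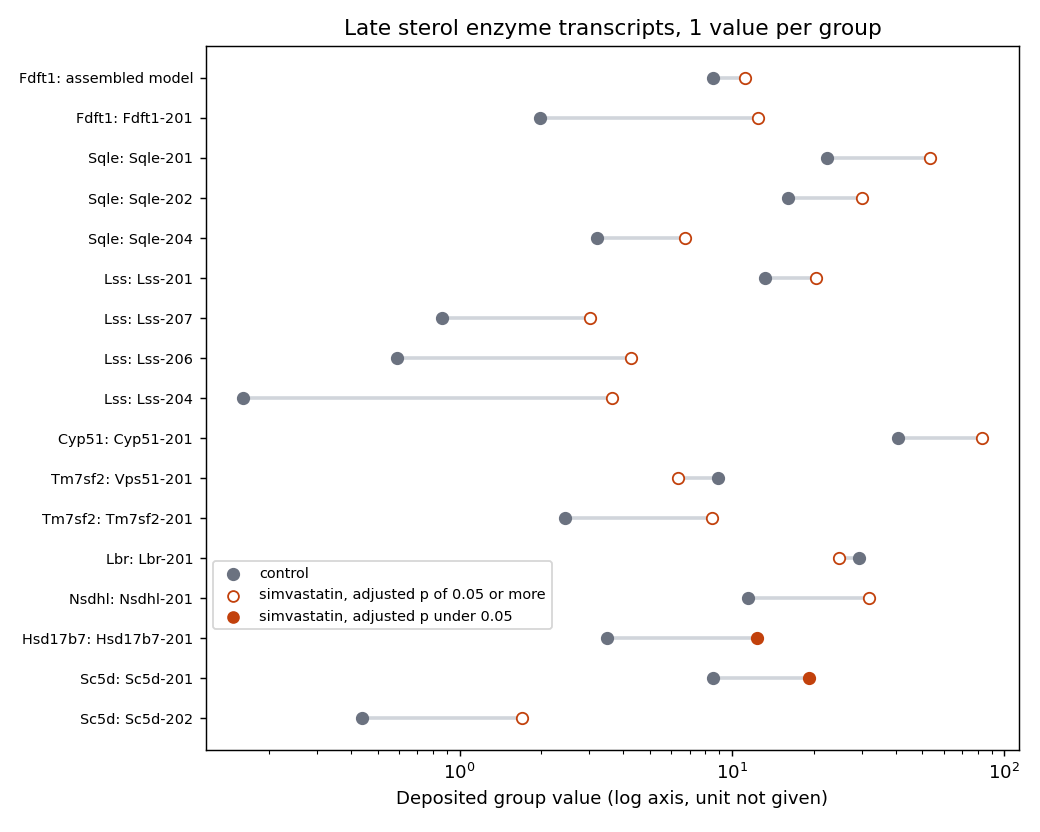
Deposited value of each member transcript in control (grey) and simvastatin (orange) cells, on a log axis, with 1 value per group and genes in pathway order. The simvastatin point lies to the right of the control point in all transcripts but Vps51-201, listed under Tm7sf2, and Lbr-201, and the filled points of Hsd17b7-201 and Sc5d-201 mark an adjusted p under 0.05.

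Fdft1 (chr14:63145150-63179578, minus strand, GRCm38) encodes squalene synthase, which joins farnesyl diphosphate units head to head and commits them to sterols. It was listed with a model assembled from reads and with the annotated coding transcript Fdft1-201. The assembled model has no entry in GENCODE M21, so its gene was taken from the listed name and its structure was not checked. For the assembled model the authors' deposited table gives 8.56 in control and 11.19 in simvastatin cells, with a fold of 1.31 and an adjusted p of 0.595. Fdft1-201 was listed there at 1.97 in control and 12.46 in simvastatin cells, a fold of 6.32 with an adjusted p of 0.445. Neither passed the test, and the difference between the 2 forms was not tested. The assembled model held 81.3% of the gene total in control and 47.3% in simvastatin cells. The log2 ratio of Fdft1 was thus 1.17 for the sum of both, 0.39 for the assembled model and 2.66 for Fdft1-201. All 3 put the simvastatin value above the control value, and they differ in size with the model that is counted.

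Sqle (chr15:59315077-59331192, plus strand) encodes squalene epoxidase, which adds the oxygen that squalene needs before it can be closed into rings. Sqle-201, its main coding transcript, stood at 22.41 in control and 53.51 in simvastatin cells, and the authors' deposited table gives a fold of 2.39 with an adjusted p of 0.122. The second coding transcript, Sqle-202, stood at 16.09 and 29.99, with a deposited fold of 1.86 and an adjusted p of 0.183 in the same table. Sqle-204, an annotated retained-intron transcript, was at 3.20 and 6.74, and its adjusted p in the authors' deposited table was 0.664. Sqle-202 differs from Sqle-201 in the coding part by exon 7 (chr15:59324462-59324557, plus strand), 96 bases or 32 codons that it skips in frame, so that its coding sequence is 1620 and not 1716 bases long. That exon is shown because it is what tells the 2 coding forms apart, from GENCODE M21:
Sqle exon 7: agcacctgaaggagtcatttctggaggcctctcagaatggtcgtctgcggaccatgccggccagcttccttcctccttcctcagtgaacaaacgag
Both forms had a higher value in simvastatin cells. The form with exon 7 held 53.7% of the Sqle total in control and 59.3% in simvastatin cells, the form without it 38.6% and 33.2%, and the retained-intron form 7.67% and 7.47%. The share of each form differed by less than 6 percentage points between the groups, while the gene total went from 41.70 to 90.24, a log2 ratio of 1.11.

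Lss (chr10:76531588-76557138, plus strand) encodes lanosterol synthase, which closes the squalene epoxide into lanosterol. Its coding transcript Lss-201 was at 13.23 in control and 20.41 in simvastatin cells, and the authors' deposited table gives a fold of 1.54 with a p of 0.894 and an adjusted p of 0.953. The other 3 Lss transcripts are annotated as retained-intron forms, without a coding sequence. Lss-207 stood at 0.86 in control and 3.02 in simvastatin cells, with a fold of 3.50 and an adjusted p of 0.162 in the authors' deposited table. Lss-206 stood at 0.59 and 4.26, with an adjusted p of 0.604 in that table. Lss-204 stood at 0.16 and 3.64, with an adjusted p of 0.675 in that table, and a control value printed to so few digits gives a ratio of 22.75 where the deposited fold is 22.37. No Lss transcript passed the test, although the authors called Lss-207.

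Lss-206 keeps intron 13 of Lss-201 (chr10:76544537-76545450, 914 bases) and Lss-204 keeps intron 4 (chr10:76535668-76536243, 576 bases). Both forms also differ from Lss-201 in other exons, sharing 14 and 18 of its exons exactly. The libraries were of total RNA, in which a read into an intron does not tell a retained intron from RNA not yet spliced. The sequences across the exon ends are shown because they differ with and without the intron. They are the transcript sequences of GENCODE M21 on GRCm38, plus strand, with 25 bases on each side of the exon end, and capitals mark intron bases:
Lss-206, intron 13 kept: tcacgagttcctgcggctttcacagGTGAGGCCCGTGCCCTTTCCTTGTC
Lss-201, intron 13 removed: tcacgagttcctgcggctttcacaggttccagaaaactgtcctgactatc
Lss-204, intron 4 kept: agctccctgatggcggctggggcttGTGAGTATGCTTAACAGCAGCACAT
Lss-201, intron 4 removed: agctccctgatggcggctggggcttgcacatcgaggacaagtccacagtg
In both kept introns the exon end is followed by GTGAG, which opens with the GT of a usual splice donor. Lss-207 consists of 2 exons at the end of the gene, shares neither exactly with Lss-201 and covers 1110 bases of its introns.

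The 3 retained-intron forms together went from 1.61 in control to 10.92 in simvastatin cells, 6.78-fold, while the coding form was 1.54-fold higher. Their share of the Lss total was 10.8% in control and 34.8% in simvastatin cells, 24.0 percentage points more. For Sqle the same share differed by -0.20 points. Over the 751 genes that have both a retained-intron and a coding transcript in the table, the median share was 21.6% in control and 21.8% in simvastatin cells, and 43 of them, 5.73%, had a share more than 20 points higher in simvastatin cells. All 1109 retained-intron transcripts summed to 8911.4 and 8932.7, a ratio of 1.00. The Lss share is a difference of single group values, with no replicate check.

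**Figure D2:**
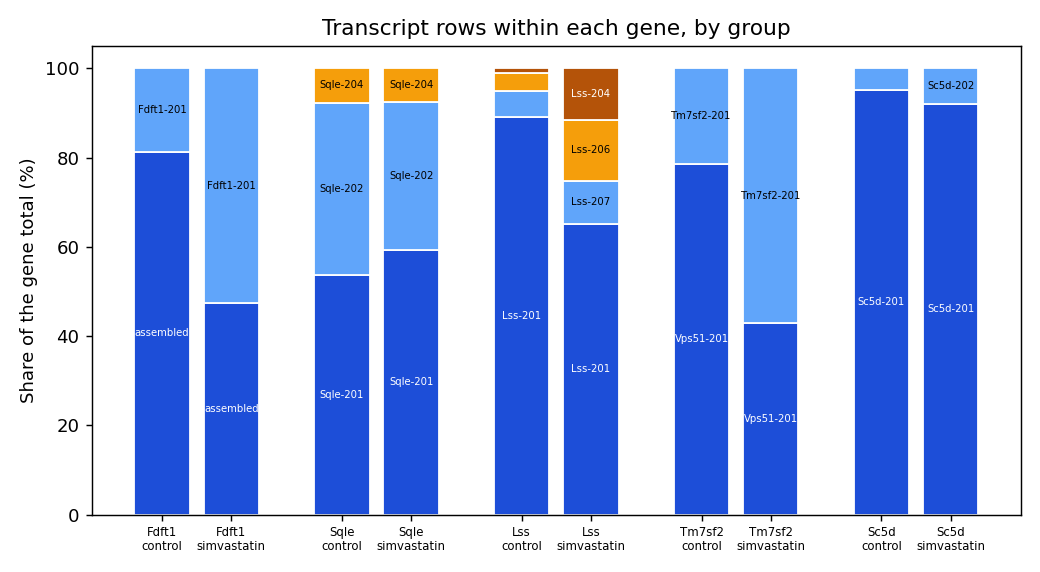
Share of each gene total, in percent, held by each transcript in control and simvastatin cells, for the 5 members with more than 1 listed transcript. The segments listed under Tm7sf2 are Vps51-201, a transcript of another gene in GENCODE M21, and Tm7sf2-201, so they are not 2 forms of 1 gene. Lss-201 holds 89.2% in control and 65.2% in simvastatin cells, the assembled Fdft1 model 81.3% and 47.3%, and the segments of Sqle and Sc5d keep nearly the same size. The unlabelled Lss control segments are Lss-207, Lss-206 and Lss-204, from the bottom up, and the unlabelled Sc5d segment is Sc5d-202.

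Cyp51 (chr5:4081145-4104746, minus strand) encodes the cytochrome P450 that removes a methyl group from lanosterol, the earliest step past the ring closure. Its only listed transcript, Cyp51-201, was at 40.85 in control and 83.00 in simvastatin cells. The authors' deposited table gives it a fold of 2.03, a p of 0.002 and an adjusted p of 0.055, just outside the threshold. The authors called it higher.

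The double bond left by Cyp51 can be reduced by either of 2 related enzymes, Tm7sf2 in the endoplasmic reticulum and Lbr, the lamin B receptor, an inner nuclear membrane protein that also tethers heterochromatin. Tm7sf2 (chr19:6062821-6068373, minus strand) was listed with 2 transcripts. Tm7sf2-201 was at 2.44 in control and 8.46 in simvastatin cells, and the authors' deposited table gives a fold of 3.47, a p of 0.008 and an adjusted p of 0.104, with a call. The other transcript, at 8.90 in control and 6.35 in simvastatin cells with an adjusted p of 0.604 in that table, is Vps51-201 in GENCODE M21. Vps51 (chr19:6067842-6077231) is the neighbouring gene on the same strand, a subunit of a tethering complex of the Golgi, and no row of the table carries its name. The gene loci overlap by 532 bases and the 2 listed transcripts by 1 base. Of the 11635 transcripts of the table that GENCODE M21 holds, 11 were listed under another gene, and this was the only one among the members. Summed as listed, the Tm7sf2 total was 11.34 in control and 14.81 in simvastatin cells, a log2 ratio of 0.39, whereas Tm7sf2-201 alone gave 1.79. Because the loci lie on the same strand, a strand-specific library does not by itself separate reads of their shared bases, and no source used here says how the authors counted such reads.

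**Figure D3:**
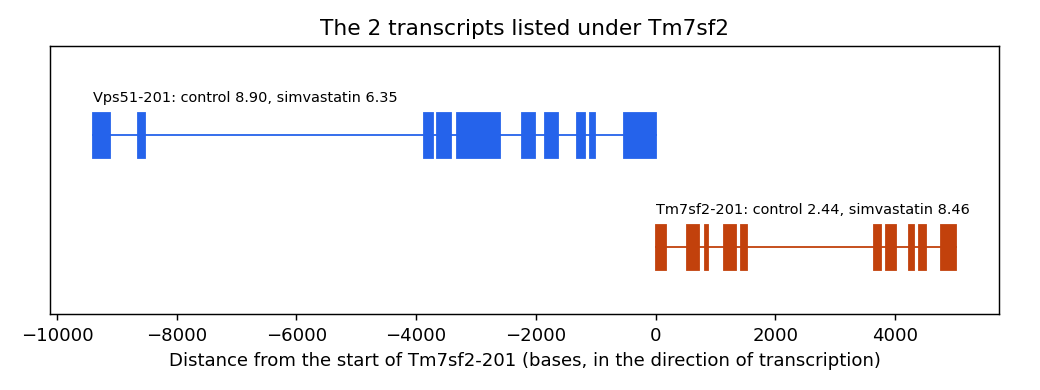
Exons (boxes) and introns (lines) of the 2 transcripts listed under Tm7sf2, against the distance in bases from the start of Tm7sf2-201, with their deposited group values. Vps51-201 ends where Tm7sf2-201 starts and is lower in simvastatin cells, 6.35 against 8.90, while Tm7sf2-201 is higher, 8.46 against 2.44.

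Lbr (chr1:181815335-181843046, minus strand) was the only member gene whose total was lower in simvastatin cells. Lbr-201 stood at 29.43 in control and 24.75 in simvastatin cells, and the authors' deposited table gives a fold of -1.19 (control over simvastatin), a p of 0.028 and an adjusted p of 0.190, without a call. It was the only member transcript lower at an unadjusted p under 0.05, where 10.2% of all transcripts were. At the same unadjusted threshold 8 member transcripts were higher, against 9.42% of all transcripts. The log2 ratio of Lbr was -0.25 on the deposited scale and -0.05 when both groups were scaled to the same sum. That scaling moved the median gene from 0.02 to 0.22 and the median member from 1.11 to 1.31, and no member's sign depended on it. The 2 enzymes of this step thus had log2 ratios on either side of zero, 1.79 for Tm7sf2-201 and -0.25 for Lbr-201. Neither transcript passed the adjusted threshold. The difference between these ratios was not tested, since no value per sample was used.

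**Figure D4:**
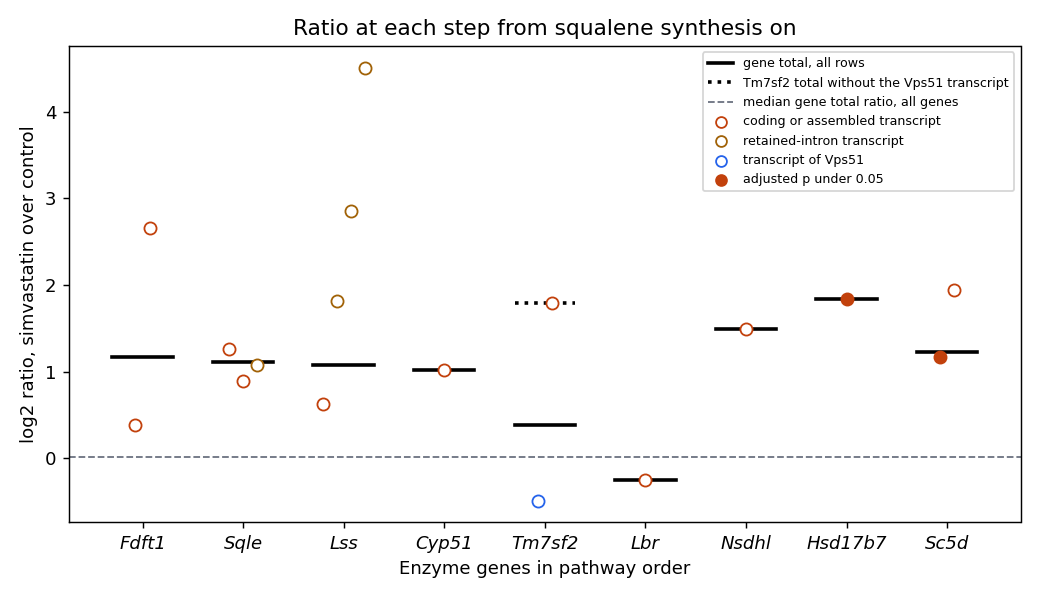
The log2 ratio of simvastatin over control for each member transcript (points) and for each gene total (bars), with genes in pathway order and the median of all genes as a dashed line. Every gene total except that of Lbr lies above the line, and the Tm7sf2 total moves from 0.39 to 1.79 (dotted bar) without the Vps51 transcript.

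Nsdhl (chrX:72918557-72958514, plus strand) and Hsd17b7 (chr1:169949535-169969241, minus strand) encode, with Msmo1, the enzymes that take off the remaining methyl groups next to the sterol's hydroxyl, Nsdhl as the decarboxylating dehydrogenase and Hsd17b7 as the ketoreductase. Each had 1 listed transcript. Nsdhl-201 was at 11.42 in control and 32.00 in simvastatin cells, with a fold of 2.80, a p of 0.002 and an adjusted p of 0.053 in the authors' deposited table, and was called by them. Hsd17b7-201 rose from 3.48 in control to 12.42 in simvastatin cells, with a fold of 3.57, a p of 0.001 and an adjusted p of 0.044 in the authors' deposited table. The log2 ratio of Hsd17b7, 1.84, was the highest of the 9 gene totals as listed, and that of Nsdhl, 1.49, the next. Without the Vps51 transcript Tm7sf2 stood between them at 1.79, and without its assembled model Fdft1 stood above all at 2.66.

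Sc5d (chr9:42251595-42264256, minus strand) encodes lathosterol oxidase, the desaturase that puts in a ring double bond shortly before cholesterol. Sc5d-201 rose from 8.54 in control to 19.26 in simvastatin cells, and the authors' deposited table gives a fold of 2.26, a p printed as 0.000 and an adjusted p of 0.042. The minor coding transcript Sc5d-202 was at 0.44 and 1.69, with an adjusted p of 0.779 in the authors' deposited table. Sc5d-202 has the same coding length as Sc5d-201, 897 bases. Sc5d-201 held 95.1% of the gene total in control and 91.9% in simvastatin cells.

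Most transcripts with a large fold missed the threshold. Over the whole data set, 1093 of the 15905 transcripts had a simvastatin value at least 3 times a control value above zero. An adjusted p of 0.05 was passed by 37 of these, 3.38%. Among the 17 member transcripts there were 7 such (Fdft1-201, Lss-207, Lss-206, Lss-204, Tm7sf2-201, Hsd17b7-201 and Sc5d-202), and 1 of them, Hsd17b7-201, passed. The control values of Lss-207, Lss-206, Lss-204 and Sc5d-202 were low, at 0.86, 0.59, 0.16 and 0.44, so small differences give large folds there. Sc5d-201 passed with a smaller fold, 2.26 in the authors' deposited table, than 8 member transcripts that did not. At an adjusted p under 0.1 the members had 4 higher transcripts, with Nsdhl-201 and Cyp51-201 added, against 4.02% of all transcripts, and none lower, against 3.76%.

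Promoter windows were read from RefSeq on GRCm38.p6, from 250 bases before to 50 after the annotated start, and 7 of the 9 members were matched, without Fdft1 and Sqle. CACCCCAC, the core of the sterol regulatory element that SREBP binds, was in none of the 7 windows on either strand. It was in 2.87% of all 32851 RefSeq windows searched, and with AT before it in 0.0913%. Those windows, the background for each motif here, were not limited to genes with a value in these cells. The looser TCACCNCA, which overlaps that core and was searched after the values were seen, was in the windows of Cyp51 and Hsd17b7, against 4.42% of all windows. The E-box CACGTG, also added after the values were seen, was in the windows of Hsd17b7 and Sc5d, against 7.15% of all windows. A link between these motifs and the values was not tested. CCAAT, the letters bound by NF-Y, and GGGCGG, those bound by Sp1, were in all 7 windows, against 37.4% and 35.7% of all windows. Lbr, the lowest gene total ratio, held both as did the others.

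The upstream windows of Hsd17b7, the highest ratio of the gene totals as listed, of Sc5d, the other transcript that passed, of Cyp51, the other window with TCACCNCA, and of Lbr, the lowest of those ratios, are shown so that their letters can be compared. They run 5′ to 3′ on the strand of the gene, which is minus for all 4, leave out bases inside an annotated exon of the gene, and have in capitals every match on either strand to TCACCNCA, the E-box, and the letters given above for NF-Y and Sp1. Their positions are chr1:169969242-169969455 for Hsd17b7, chr9:42264301-42264550 for Sc5d, chr5:4104747-4104947 for Cyp51 and chr1:181842402-181842651 for Lbr:
Hsd17b7: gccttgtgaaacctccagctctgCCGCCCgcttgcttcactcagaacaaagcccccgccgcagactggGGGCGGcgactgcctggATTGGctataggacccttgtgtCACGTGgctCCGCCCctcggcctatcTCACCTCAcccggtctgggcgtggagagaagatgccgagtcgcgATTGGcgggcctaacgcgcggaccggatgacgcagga
Sc5d: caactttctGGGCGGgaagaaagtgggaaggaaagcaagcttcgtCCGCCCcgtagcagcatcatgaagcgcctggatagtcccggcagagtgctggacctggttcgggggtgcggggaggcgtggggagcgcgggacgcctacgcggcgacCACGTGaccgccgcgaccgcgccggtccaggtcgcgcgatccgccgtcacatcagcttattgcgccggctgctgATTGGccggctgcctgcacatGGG
Cyp51: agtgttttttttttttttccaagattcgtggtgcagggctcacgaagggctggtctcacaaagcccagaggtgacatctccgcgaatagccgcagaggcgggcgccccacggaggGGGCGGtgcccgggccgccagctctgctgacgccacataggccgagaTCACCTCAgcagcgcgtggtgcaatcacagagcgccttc
Lbr: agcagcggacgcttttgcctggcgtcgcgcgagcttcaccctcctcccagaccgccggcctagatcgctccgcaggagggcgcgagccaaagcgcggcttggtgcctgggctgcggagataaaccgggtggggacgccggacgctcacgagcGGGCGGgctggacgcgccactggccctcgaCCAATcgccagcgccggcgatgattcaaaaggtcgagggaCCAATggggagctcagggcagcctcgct
In Hsd17b7 the TCACCNCA match starts 117 bases before the annotated start, with CACGTG at 143 bases and a GGGCGG match at 134 bases before it. In Sc5d the CACGTG match starts 98 bases before the start, and the capitals at the very end open a GGGCGG match that runs past the part shown. In Cyp51 the match starts 88 bases before the start and reads TCACCTCA, the same 8 letters as in Hsd17b7. The parts shown leave out the CCAAT matches that start 29 bases before the start in Cyp51 and 12 bases before it in Hsd17b7. They also leave out GGGCGG matches after the start in Lbr and Sc5d. A match here is a description of letters, with no binding measured.

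The other genes of the pathway were taken from lists by role, with values on the deposited scale. Scaling both groups to the same sum moved every log2 ratio up by 0.20, which left no gene in the lists of other late and of early enzymes with a lower total, and 1 in place of 2 among those of sterol sensing and uptake. Of 5 further genes of late enzymes and their scaffold, 4 were in the table with 10 transcripts, and the totals of 3 were higher in simvastatin cells, with a median log2 ratio of 0.66. None of the 4 passed in either direction, and at an unadjusted p under 0.05 the authors' deposited table has 2 of their 10 transcripts higher and 0 lower, against 9.42% and 10.2% of all transcripts. Msmo1, the methyl oxidase that works with Nsdhl and Hsd17b7, had totals of 56.60 and 102.65, and its leading transcript an adjusted p of 0.132 in the authors' deposited table. Dhcr7, which catalyses the last reduction to cholesterol in one branch, had totals of 38.75 and 81.58 and no transcript that passed. Among the 8 measured of 9 early enzymes, from acetyl-CoA to farnesyl diphosphate, the totals of 7 were higher and the median log2 ratio was 0.92. Hmgcs1, HMG-CoA synthase, rose from 27.29 to 95.03 in its leading transcript, with an adjusted p of 0.041 in the authors' deposited table, and no other early enzyme of the list passed. At an unadjusted p under 0.05, 8 of the 20 transcripts of the early enzymes were higher and 2 lower in that table, against 9.42% and 10.2% of all transcripts. Fdps, the farnesyl diphosphate synthase just upstream of Fdft1, had totals of 127.93 and 240.40 and an adjusted p of 0.057 for its leading transcript in that table. The late members, the other late enzymes and the early enzymes had medians of 1.11, 0.66 and 0.92 in log2 ratio, and these medians were not tested against each other.

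Farnesyl diphosphate also feeds dolichol, ubiquinone and prenylated proteins. Of 9 genes for these uses, 6 were measured and none passed in either direction, and their median log2 ratio was 0.07. At an unadjusted p under 0.05, 1 of their 12 transcripts was higher and 0 were lower in the authors' deposited table, near or under the 9.42% and 10.2% of all transcripts. Nus1, a subunit of the dolichol-making prenyltransferase, had totals of 40.31 and 43.38, and Fnta, the shared subunit of the protein prenyltransferases, 29.92 and 30.89. Of 12 genes of sterol sensing and uptake, 9 were measured, and 1 of them had a transcript that passed, higher in simvastatin cells. The totals of 7 were higher and those of 2 lower, with a median log2 ratio of 0.45. Of their 14 transcripts, 7 were higher and 1 lower at an unadjusted p under 0.05 in the authors' deposited table. Over all transcripts these shares were 9.42% and 10.2%. Insig2, which holds SREBP back in the endoplasmic reticulum, rose from 24.01 to 38.34 in its leading transcript, with an adjusted p of 0.038 in the authors' deposited table. Insig1, of the same function as Insig2, had totals of 65.10 and 142.27 and an adjusted p of 0.056 for its leading transcript in that table. Npc2, which moves cholesterol out of lysosomes, had totals of 51.11 and 69.91 and no transcript that passed.

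Lbr belongs to the nuclear envelope as well as to sterol synthesis, so its partners there were read beside it. Of 12 such genes 11 were measured, the totals of 8 were lower in simvastatin cells, among them Cbx5 at 58.71 and 58.67, and the median log2 ratio was -0.22. With both groups scaled to the same sum, 6 were lower and the median was -0.02. Lmnb1, which encodes lamin B1, fell from 47.49 to 20.11, with an adjusted p of 0.042 in the authors' deposited table, and was the only one of the 11 that passed. At an unadjusted p under 0.05, 8 of their 33 transcripts were lower and 0 higher in that table, against 10.2% and 9.42% of all transcripts. Lmna, the gene of lamins A and C, had totals of 120.54 and 131.21, and Tmpo, which encodes the LAP2 proteins, 80.23 and 68.86, and neither had a transcript that passed.

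**Figure D5:**
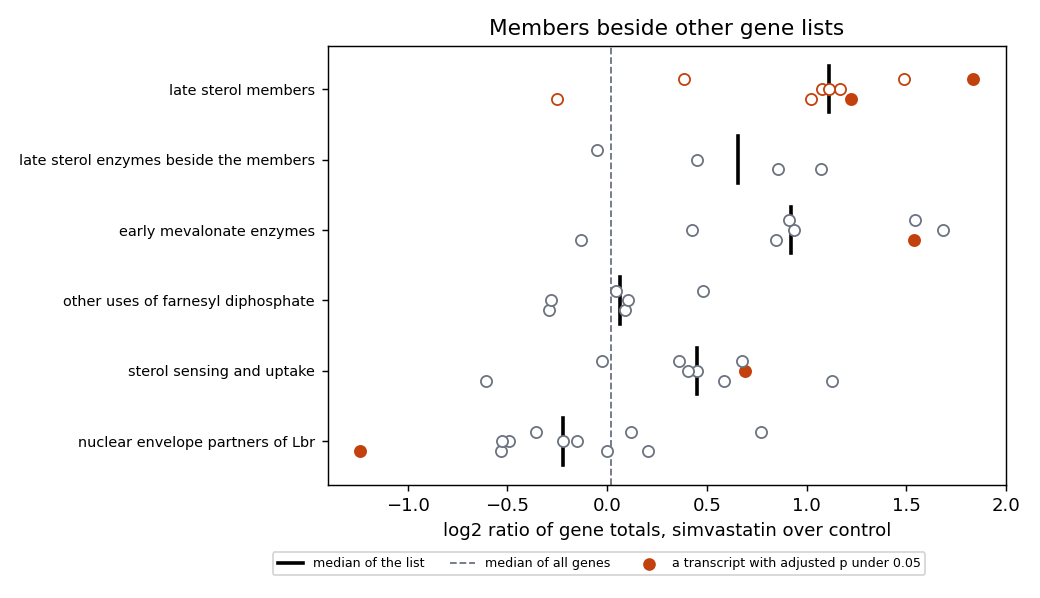
The log2 ratio of each gene total, simvastatin over control, for the members and for the 5 lists, with the median of each list as a black bar and the median of all genes as a dashed line. The medians are 1.11 for the members, 0.66 and 0.92 for the other late and the early enzymes, 0.07 for other uses of farnesyl diphosphate, 0.45 for sterol sensing and -0.22 for the nuclear envelope, and filled points mark genes with a transcript at an adjusted p under 0.05.

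The members also appear in the authors' tables made from their called genes, which are not independent of the values above. In the deposited enrichment table the KEGG pathway steroid biosynthesis holds 9 called genes, of which 7 are members, with a fold enrichment of 10.88 and an adjusted p of 6.38e-05. The sterol biosynthetic process of GO holds 15 genes there, 5 of them members, with a fold enrichment of 18.73, and the endoplasmic reticulum membrane 85 genes, 7 of them members, with a fold enrichment of 3.05. In the deposited network of STRING links, 6 members (Sqle, Lss, Tm7sf2, Nsdhl, Hsd17b7 and Sc5d) are joined by 12 of the 15 links possible between them, with scores from 0.802 to 0.998, out of 167 links in all. Cyp51, which the authors called, has no link in that network. A deposited comparison with A375, a human melanoma line, lists Hsd17b7 as the only member, with a log2 fold change of 1.58 in B16.F10 cells at 3.5 µM and a z-score of 0.818 in A375 cells at 10 µM. With a pseudocount of 1 the ratio computed here for Hsd17b7 was also 1.58, against 1.84 without one. The doses and scales of the A375 comparison differ, so its 2 numbers are set side by side without a comparison.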

How the data were processed

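RNA was sequenced in 6 samples, 3 untreated and 3 given simvastatin, grouped by their titles. The submitters' processing notes name HISAT2 2.0.5, StringTie and the build GRCm38 (mm10), with no role or order. No source used here says how transcripts were quantified, filtered and tested. The deposited table holds 1 signal value per group and transcript, a signed fold score and p-values, per the file headers, with p-values printed to 3 decimals by the authors. Interaction, enrichment and z-scores are the authors' deposited scores, and the log2 fold change of the A375 comparison is likewise deposited.

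No per-sample value was used and no test was refitted. Transcripts were counted at the authors' adjusted p under 0.05. Transcript values were summed per gene name, and log2 ratios and shares were computed from the sums (Python 3.11.15, pandas 2.3.3). The code for the sums and their log2 ratios was tested on simulated data in which all transcripts of a gene had the same ratio, without noise. That checks the arithmetic only, and not genes whose transcripts differ in ratio. The shares were not tested in this way. Transcript types, names and positions are those of GENCODE M21. All 9 members are named, and from each list the genes that passed and the 2 of highest mean total. Some genes of the lists are not reported here and were left out of the lists' counts and medians. The members, lists and markers were chosen with earlier results of these data known. TCACCNCA, CACGTG and the 2 annotation filters of the gene totals were added after the data were seen.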

Additional observations from a re-analysis of the deposited data

How the results depend on the processing

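The threshold moved the counts of member transcripts. At an adjusted p under 0.05, 2 were higher and 0 lower. An adjusted p under 0.1 gave 4 higher, and the authors' own call 8. An unadjusted p under 0.05 gave 8 higher and 1 lower, Lbr-201. Keeping only Ensembl identifiers, or leaving out the transcript of another gene, gave 2 and 0 again. The number of member genes with a higher total was 8, and 7 with the transcript of highest mean value alone, and the median log2 ratio ran from 1.02 to 1.31 over the 8 other ways of forming the totals (2 of them, the annotation filters, chosen after seeing the data). Of 72 log2 ratios of single genes under these, 66 stayed within 1.5-fold, 5 moved further and 1 reversed. Tm7sf2 reversed to -0.49 with its highest-valued transcript, which is that of Vps51, and was 1.79 without it. Fdft1 was 2.66 without the assembled model and 0.39 with it alone.

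No paired analysis was possible because the table used here holds 1 value per group. For the same reason leaving out replicates, edgeR and DESeq2 were not run, and depth sets no interval on any value.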
